A study of Homo sapiens with 8 samples.

Results

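RN7SK, the gene of 7SK RNA, and TERC, the gene of telomerase RNA, were followed through 5 small RNA libraries of MEC-1 exosomes and 3 libraries of the MEC-1 cells that release them. They were taken by symbol from tables of 2709 non-coding RNA features, 2 features in all, and both passed the filter on low counts that left 1178 features for testing. MEC-1 is an established line of B cells from a chronic lymphocytic leukaemia. Exosomes, small membrane vesicles shed into the medium, were collected from bioreactor supernatants by centrifugation at 100000 g with a 20% iodixanol cushion. Culture medium had been cleared of serum vesicles except in the upper bioreactor compartment. Per the design text, 3 of the 5 exosome samples have a matching cell sample, but it does not name which, so the groups were compared as unpaired. All libraries came from 1 cell line and from RNA isolated with a protocol for molecules under 200 nt. The comparison asked which small RNAs the vesicles carried relative to their parental cells.

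7SK RNA is an abundant nuclear RNA made by RNA polymerase III. It holds the kinase P-TEFb, which releases paused RNA polymerase II, in an inactive complex with HEXIM proteins, and LARP7 and MEPCE protect its ends. Telomerase RNA is the scaffold of the enzyme that lengthens chromosome ends and holds the template copied into telomere repeats. It is made by RNA polymerase II, carries an H/ACA domain like that of many small nucleolar RNAs (snoRNAs), and gathers in Cajal bodies, where H/ACA proteins and TCAB1 bind it. Both are thus nuclear scaffolds, and both are longer than the molecules the preparation selects.

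The RN7SK feature lies on chromosome 6 from 52860418 to 52860748 on the plus strand of GRCh37 and is 331 nt long. The TERC feature lies on chromosome 3 from 169482308 to 169482848 on the minus strand and is 541 nt long. Each is a single block of a non-coding gene, and no other feature of the tables overlaps either one. Reads on both stand for fragments, since the features are longer than 200 nt. RefSeq lists 293 RN7SKP pseudogenes of 7SK, none of which is a feature here. How reads shared with such copies were counted is not given in the sources used here, so part of the RN7SK count is uncertain.

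The transcript sequences show the parts of each RNA that its best-known partners and function use. They come from GENCODE release 29 on GRCh38, RN7SK at chr6:52995621-52995948 on the plus strand and TERC at chr3:169764520-169765060 on the minus strand, and the first 300 bases of each are written 5′ to 3′ in DNA letters. Capitals in RN7SK mark GATC, the repeat that HEXIM recognises in the 5′ hairpin. Capitals in TERC mark CTAACCC, which lies in the template for the telomere repeat.
RN7SK: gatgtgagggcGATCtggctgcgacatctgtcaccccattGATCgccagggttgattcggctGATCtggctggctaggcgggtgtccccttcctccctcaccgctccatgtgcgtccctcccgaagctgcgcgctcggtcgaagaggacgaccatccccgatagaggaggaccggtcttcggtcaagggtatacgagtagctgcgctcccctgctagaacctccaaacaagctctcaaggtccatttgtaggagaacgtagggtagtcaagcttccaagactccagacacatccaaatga
TERC: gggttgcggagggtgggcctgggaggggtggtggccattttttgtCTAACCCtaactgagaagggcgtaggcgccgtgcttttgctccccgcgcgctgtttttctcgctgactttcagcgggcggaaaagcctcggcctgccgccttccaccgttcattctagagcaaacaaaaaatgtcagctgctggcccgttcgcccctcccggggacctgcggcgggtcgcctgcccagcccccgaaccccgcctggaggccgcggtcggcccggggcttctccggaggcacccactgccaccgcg
Over the whole transcripts, GATC, which reads the same on both strands, was found 3 times in RN7SK, starting at positions 12, 41 and 63. At least 3 matches also occurred in 10.6% of 5112 GENCODE transcripts of 298 to 358 nt. CTAACCC was found once in TERC, at positions 46 to 52, and not on the other strand. It occurred in 1.61% of 20616 transcripts of 511 to 571 nt, and its reverse complement in 1.08%. The GENCODE entry of RN7SK has 328 nt, against 331 nt for the counted feature.

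Totals ran from 23353820 to 32436286 counts per exosome library and from 25675636 to 57323598 per cell library. Counts are given below as CPM, reads scaled to library size times a TMM factor, which corrects for a few very abundant features. The scaling factor was 0.524 in exosome 5 and 0.552 in cell 2, against 0.905 to 1.46 in the other libraries, so these 2 libraries stand apart in composition. Of the lymphoid miRNAs looked for, MIR181A1, MIR181B1 and MIR150 had reads in every library and none was called; 2 others are not analysed here. Of 10 miRNAs of other cell types, 7 had a feature, 6 were tested and 4 were called higher in exosomes, led by liver MIR122, where 20.7% of all 1178 tested features were called higher and 43.0% in either direction. Their summed level was 88.7 to 248 CPM in exosome and 20.2 to 55.6 CPM in cell libraries, and no one of the 7 had 0 reads over all libraries. MIR203, among the 4 called higher, passed the low-count filter only through exosome libraries, so it could only be called higher. The part of RNA from other cell types in the results below was not tested.

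Reads on 7SK RNA were far fewer in exosomes than in cells, relative to library size. RN7SK had 244, 215, 236, 167 and 272 CPM in exosomes 1 to 5, against 9679, 997 and 17893 CPM in cells 1 to 3. Every exosome library lay below every cell library, and the lowest cell library was 3.67 times the highest exosome library. The log2 fold change was -5.39, a 42.0-fold fall (edgeR's quasi-likelihood test, SE 0.71, 95% interval -6.89 to -3.89, adjusted p = 6.41e-05). It was the 8th lowest fold change of the 1178 features tested, of which 22.3% were called lower; the groups did not overlap in 41.7% of features. Reads on RN7SK stand for fragments, so the fall does not measure intact 7SK RNA. Whether 7SK RNA is fragmented alike in cells and exosomes was not tested. Lower RN7SK can mean fewer vesicles that carry it, less of it per vesicle, or a larger share of reads on other RNAs. These cannot be told apart here. Since no label ties libraries to separate cultures, the spread behind each p-value may be technical.

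As a raw share, RN7SK took 0.0142% to 0.0332% of exosome reads. It took 1.37% of the reads of cell 1 and 1.62% of those of cell 3, but 0.055% of those of cell 2. The share in cell 2 was 1.66 times that of the highest exosome library, and counting error did not bridge the gap: its 95% Wilson interval was 0.0544% to 0.0557%, against 0.0326% to 0.0338% in exosome 3. Ordered by count among the 2709 features, RN7SK was 106th to 142nd in exosome libraries, against 12th, 69th and 11th in cells 1, 2 and 3. Intervals cover counting error only, with each read taken as a separate molecule. No molecular identifiers were used, so copies made by PCR may leave the intervals too narrow.

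The level of RN7SK varied less among exosome libraries than among cell libraries. The coefficient of variation of its CPM was 17.1% over 5 exosome libraries (227 ± 38.9 CPM, SD). Among 195 tested features within 4-fold of that level in exosomes, 11 varied less, and the median of the 195 was 42.5%. Over 3 cell libraries it was 88.7% (9523 ± 8449 CPM, SD), against a median of 60.0% for 25 features within 4-fold of the level there. Counting alone would give 1.18% in exosomes and 0.151% in cells. The spread among exosomes depends on the scaling, since exosome 5 has a factor of 0.524. On raw CPM, reads over the library total with no scaling factor, RN7SK stood at 295, 234, 332, 245 and 142 in exosomes 1 to 5, a coefficient of variation of 28.8% and a 2.33-fold range, against 1.62-fold when scaled. On that scale 8 of 198 features within 4-fold of its level varied less, with a median of 53.8%, and cell libraries had 82.8%.

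The spread among cells rested on cell 2, where RN7SK was 9.71 times lower than in cell 1 and 17.9 times lower than in cell 3. Cell 2 was the lowest cell library for 59 of the 263 features called lower in exosomes, and none of the 263 sat further below the nearer of the other cell libraries than RN7SK did, a comparison chosen after the values were seen. Nor did any of the 70 tested features with a mean of at least 1000 CPM in cells. Without cell 2 the log2 fold change was -6.01 (edgeR adjusted p = 5.03e-06), and without cell 3 it was -4.31 (adjusted p = 0.00139). Without exosome 5 it was -5.43 (adjusted p = 9.23e-05), and with limma-voom -4.65 (adjusted p = 0.000253).

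**Figure D1:**
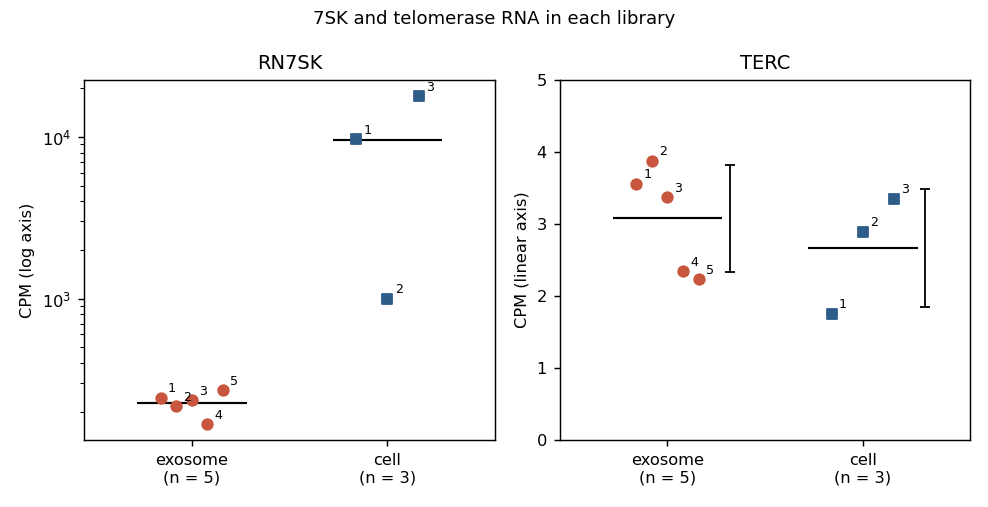
CPM of RN7SK (left, log axis) and TERC (right, linear axis from 0) in the 5 exosome libraries (circles) and 3 cell libraries (squares), numbered by replicate, with the group mean as a line and, for TERC, a bar of ± 1 SD. RN7SK lies between 167 and 272 CPM in exosomes and at 997 CPM or more in cells, while the TERC points of both groups overlap.

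Telomerase RNA was scarce in both kinds of library, and no difference was detectable at this depth. TERC had 116, 136, 154, 80 and 32 reads in exosomes 1 to 5, against 64, 87 and 174 reads in cells 1 to 3. Scaled, this was 3.56, 3.88, 3.37, 2.35 and 2.24 CPM in exosomes, against 1.76, 2.89 and 3.35 CPM in cells. The groups overlapped: exosomes 4 and 5 lay below cells 2 and 3, exosomes 1 and 2 lay above all 3 cell libraries, and exosome 3 was level with cell 3. The mean was 3.08 ± 0.742 CPM in exosomes (SD, n = 5) and 2.67 ± 0.822 CPM in cells (SD, n = 3). The log2 fold change was 0.21 (SE 0.55, edgeR adjusted p = 0.784), and its 95% interval ran from -0.95 to 1.37, so changes between 0.518-fold and 2.58-fold remain possible. It was 0.32 without exosome 5 (adjusted p = 0.678). Without cell 1 the sign turned, at -0.10 (adjusted p = 0.923).

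By rank, TERC lay in a similar range in both kinds of library. It was 606th to 758th of 2709 features by count in exosomes and 647th to 754th in cells. Its coefficient of variation was 24.1% in exosomes and 30.8% in cells, where counting alone would give 9.82% and 9.61%, and where features within 4-fold of its level had medians of 52.2% and 54.2%. On raw CPM its coefficient of variation was 39.9% in exosomes and 30.6% in cells. As a raw share, its lowest value was 1.17 raw CPM in exosome 5 (95% Wilson interval 0.830 to 1.65). Its highest was 4.75 in exosome 3 (4.05 to 5.56). Libraries of 1 kind thus differed beyond counting error, if each read is taken as a separate molecule. Cell libraries ranged from 1.60 to 3.04 raw CPM.

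Per length, 7SK was far above telomerase RNA in every library. RN7SK had 506 to 821 CPM per kb in exosomes and 3012 to 54056 CPM per kb in cells. TERC had 4.14 to 7.17 CPM per kb in exosomes and 3.25 to 6.20 CPM per kb in cells.

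Ratios between RNAs of 1 library do not depend on library scaling, so the members were also set against each other and against other RNAs in this way. Each ratio was compared as a log2 value of counts with an exact permutation test, two-sided, over 5 exosome and 3 cell libraries. The smallest p this allows is 0.0357, and 6 ratios were adjusted together. With 1 library left out the test cannot pass, so only the size of the difference is given there. RN7SK reads per TERC read numbered 68.3, 55.4, 69.7, 70.9 and 120 in exosomes 1 to 5, against 5470, 343 and 5320 in cells 1 to 3. Every exosome library was below every cell library, and the mean difference was -4.86 on the log2 scale (exact permutation p = 0.0357, adjusted p = 0.0429). It was -6.19 without cell 2, -4.19 without cell 1 and -4.21 without cell 3.

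Against 7SL RNA, the cytoplasmic core of the signal recognition particle, both members were lower in exosomes. 7SL is also made by RNA polymerase III and its features, RN7SL1, RN7SL2 and RN7SL3, are 297 to 300 nt long, close to RN7SK; reads shared by these copies may be counted more than once. Exosomes held 0.186, 0.246, 0.257, 0.261 and 0.251 RN7SK reads per 7SL read, against 93.7, 12.0 and 135 in cells 1 to 3. The ratio was below 1 in every exosome library and above 1 in every cell library. The mean difference was -7.80 on the log2 scale, 224-fold (exact permutation p = 0.0357, adjusted p = 0.0429), with -8.88 without cell 2 and -7.13 without cell 3. The TERC to 7SL ratio was lower by 2.94 on the log2 scale in exosomes (-2.94, exact permutation p = 0.0357, adjusted p = 0.0429), at 225 to 476 reads of 7SL per TERC read in exosomes and 28.7 to 58.4 in cells. All 3 7SL features were themselves called higher in exosomes (log2 3.05 to 3.97), as were 20.7% of all 1178 tested features. The RN7SK to 7SL ratio thus moved with both of its terms. TERC itself was not called (log2 0.21), so its ratio to 7SL moved mostly with 7SL.

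Against the C/D box snoRNAs, nuclear RNAs that guide ribose methylation of rRNA, RN7SK showed no common direction. RN7SK reads numbered 0.0104 to 0.0208 per read on the 239 SNORD features in exosomes, against 0.0702, 0.00212 and 0.0529 in cells 1, 2 and 3. Cells 1 and 3 lay above all exosome libraries and cell 2 below all of them. The mean log2 difference was -0.39 (exact permutation p = 0.893, adjusted p = 0.893). It was -2.00 without cell 2, 0.52 without cell 1 and 0.32 without cell 3, and -2.96 (exact permutation p = 0.143) when the median log2 count of the SNORD features replaced their sum.

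The ratio of TERC to the RNAs that share its H/ACA domain or its home in Cajal bodies was higher in exosomes. TERC itself was not called (log2 0.21), so both ratios moved mostly with their denominators, lists chosen with earlier results of these data known. Summed H/ACA snoRNAs were at 375 to 1059 CPM in exosome libraries and 1276 to 2818 CPM in cell libraries. Summed Cajal body RNAs were at 167 to 436 CPM in exosome libraries and 587 to 1192 CPM in cell libraries. There were 159 to 313 reads on the 99 H/ACA snoRNA features for each TERC read in exosomes, against 721 to 838 in cells. The log2 ratio of TERC to H/ACA snoRNAs was 1.86 higher in exosomes (mean -7.77 ± 0.400 in exosomes and -9.63 ± 0.122 in cells, exact permutation p = 0.0357, adjusted p = 0.0429). Against the 20 small Cajal body RNAs the difference was 1.61 (exact permutation p = 0.0357, adjusted p = 0.0429), with 70.9 to 192 reads on them per TERC read in exosomes and 226 to 410 in cells. Groups did not overlap in either ratio, and leaving out any 1 library kept both differences positive, between 1.75 and 1.99 for H/ACA and between 1.42 and 1.85 for Cajal body RNAs.

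**Figure D2:**
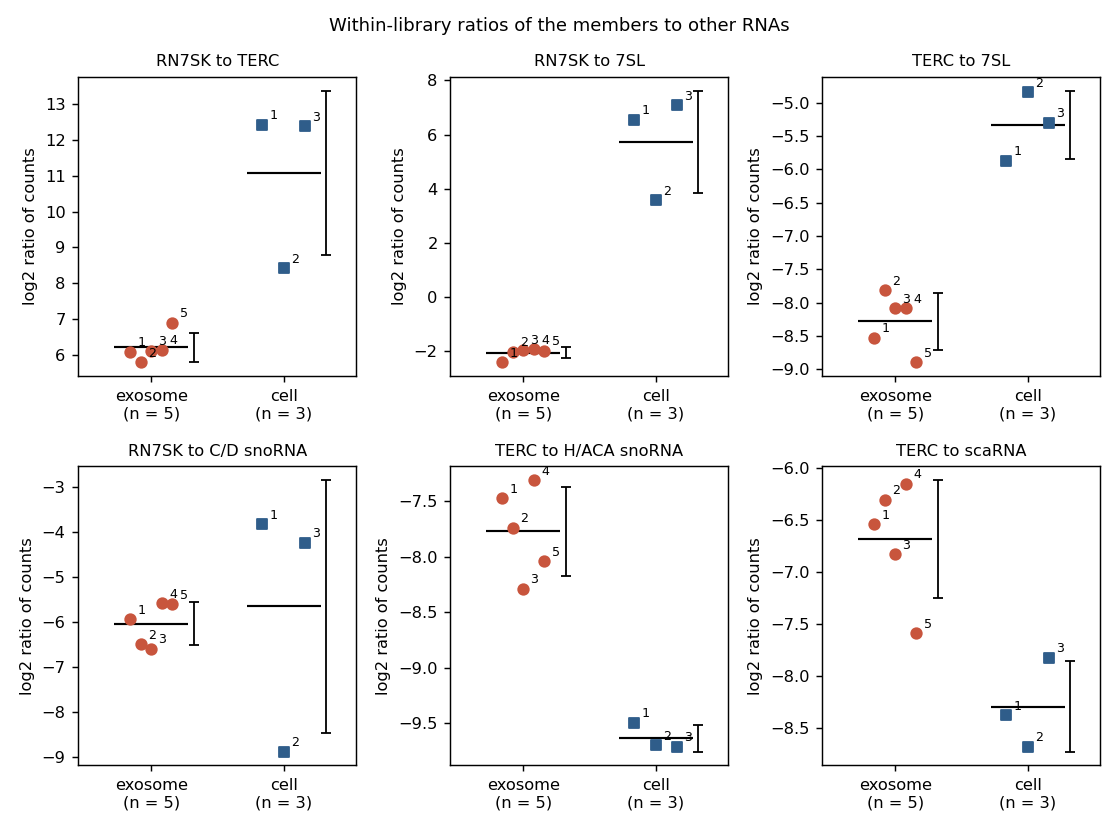
Log2 ratios of read counts within each library for the 6 pairs compared, exosome libraries as circles and cell libraries as squares, numbered by replicate, with the group mean as a line and a bar of ± 1 SD. Groups are apart in every panel but RN7SK to C/D snoRNA, where cells 1 and 3 lie above the exosome libraries and cell 2 below them.

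The features behind these sums were mostly lower or not called in exosomes. Among 82 tested H/ACA snoRNAs, edgeR called 34 lower and 1 higher and left 47 uncalled (median log2 fold change -1.51). Among 18 tested Cajal body RNAs it called 7 lower and 1 higher (median -1.33), led in abundance by SCARNA9 (-2.83, lower) and SCARNA22 (-0.35, not called). Over all 1178 features the median was -0.09, and 22.3% were called lower and 20.7% higher. Among 146 tested C/D snoRNAs, 104 were lower and 1 higher, with a median of -2.73. RN7SK lay below the median of every one of these lists and TERC above it.

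Polymerase III genes of the promoter type that RN7SK shares, with control elements upstream of the start, did not move together. Of 13 listed, 11 had a feature and 6 were tested. The 4 Y RNAs, cytoplasmic partners of Ro60, were higher (log2 2.12 to 4.71), RN7SK was lower, and RNU6ATAC of the minor spliceosome was not called (-1.02, SE 0.70). The 5 U6 genes, RNU6-1, RNU6-2, RNU6-7, RNU6-8 and RNU6-9, had only 6 to 112 reads over all 8 libraries and were not tested. The median of the 6 was 2.38, against -0.09 for all features. Of all 1178 tested features, 20.7% were called higher and 22.3% lower, so calls in both directions among 6 genes say little by themselves.

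Of 8 long RNAs listed as nuclear, not all of them strictly so, 6 had a feature and were tested. Of these edgeR called 2 higher and none lower, against 20.7% called higher and 22.3% called lower of all features, and the median was 1.13. MALAT1 of nuclear speckles was at -0.16 (64.4 ± 22.2 CPM in exosomes and 71.8 ± 41.9 CPM in cells) and NEAT1, the scaffold of paraspeckles, at -1.30 (29.5 ± 14.5 CPM in exosomes and 72.6 ± 45.6 CPM in cells), and neither was called. The 2 higher were FTX (log2 2.63, adjusted p = 0.00586 by edgeR) and MEG3 (log2 4.30, adjusted p = 0.0102 by edgeR). The FTX mean was 8.62 ± 5.62 CPM over exosome libraries and 1.38 ± 0.456 CPM over cell libraries (SD). MEG3 passed the low-count filter only through exosome libraries. It could thus only be called higher, and its call says little about the list. MEG3 had 1.26, 0.399, 0.394, 2.11 and 7.55 CPM in exosomes 1 to 5, against 0.219, 0 and 0.116 CPM in cells 1 to 3. Its exosome mean of 2.34 ± 3.00 CPM (SD) thus rests largely on exosome 5, and was 1.04 CPM without it. The log2 fold change of MEG3 was then 3.18. It was 4.90 without exosome 3 and 4.94 without cell 1. It was 3.52 without cell 2 and 4.57 without cell 3. Leaving out a library does not lift the limit set by the filter, so these values are given for size alone. Cell 2 was also the lowest cell library for all 6 of these long RNAs. MALAT1 had 23.7 CPM there, against 99.9 in cell 1 and 91.9 in cell 3, and NEAT1 had 20.2 CPM, against 104 and 93.9. Among 26 tested spliceosomal snRNAs, 2 were called higher and 7 lower, with a median of -0.22. The 7 are 26.9% of the list, near the 22.3% called lower of all features, and the 2 are 7.69%, against 20.7% called higher.

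**Figure D3:**
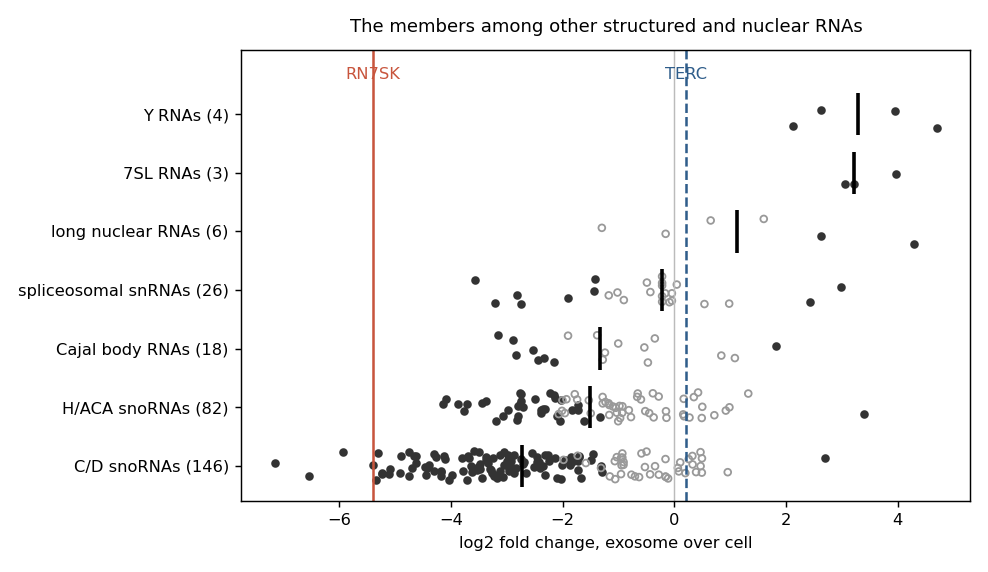
Log2 fold changes, exosome over cell, of tested features by list, the number tested in brackets, with filled points called at an adjusted p under 0.05, open points not called, and a thick bar at each median. RN7SK (solid line, -5.39) lies beyond most C/D snoRNAs, and TERC (dashed line, 0.21) lies to the right of the medians of all 4 lists of small nuclear and nucleolar RNAs.

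Features most like RN7SK across the 8 libraries, by Pearson correlation of log2 CPM over 574 features of at least 10 CPM in the higher group, were SNHG15, SNORA74A, SNORD72, SNORD15B and SNORD14B. The correlation ran from 0.946 to 0.984, given as a description, since the libraries fall into 2 groups and all 5 separate them. SNHG15, a snoRNA host gene, had 7.23 to 9.27 CPM in exosomes, against 22.4, 13.6 and 24.8 CPM in cells 1 to 3. SNORA74A is an H/ACA snoRNA and the others are C/D snoRNAs, of which SNORD15B had 8.51 to 36.3 CPM in exosomes, against 200, 52.4 and 221 CPM in cells 1 to 3. In all 5 cell 2 was the lowest cell library, as for RN7SK. The 5 were picked by likeness over these same libraries, so that shared low value follows largely from the choice. Their log2 fold changes of -3.38 to -1.30 were smaller than that of RN7SK.

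The features closest to TERC were less like it. RNVU1-7 and RNVU1-9, variants of the U1 spliceosomal RNA with nearly the same counts as each other, came first at a correlation of 0.843. RNVU1-7 had 31.5 to 66.0 CPM in exosomes and 20.6, 48.4 and 78.3 CPM in cells 1 to 3, overlapping like TERC. The tRNA-length features 7630 and 24079, which the files do not name, and SNORA71A followed at 0.782 to 0.796. The 5 had log2 fold changes of -0.04 to 0.30, near the 0.21 of TERC. They were picked by likeness to TERC over these same libraries, so that nearness follows largely from the choice.

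**Figure D4:**
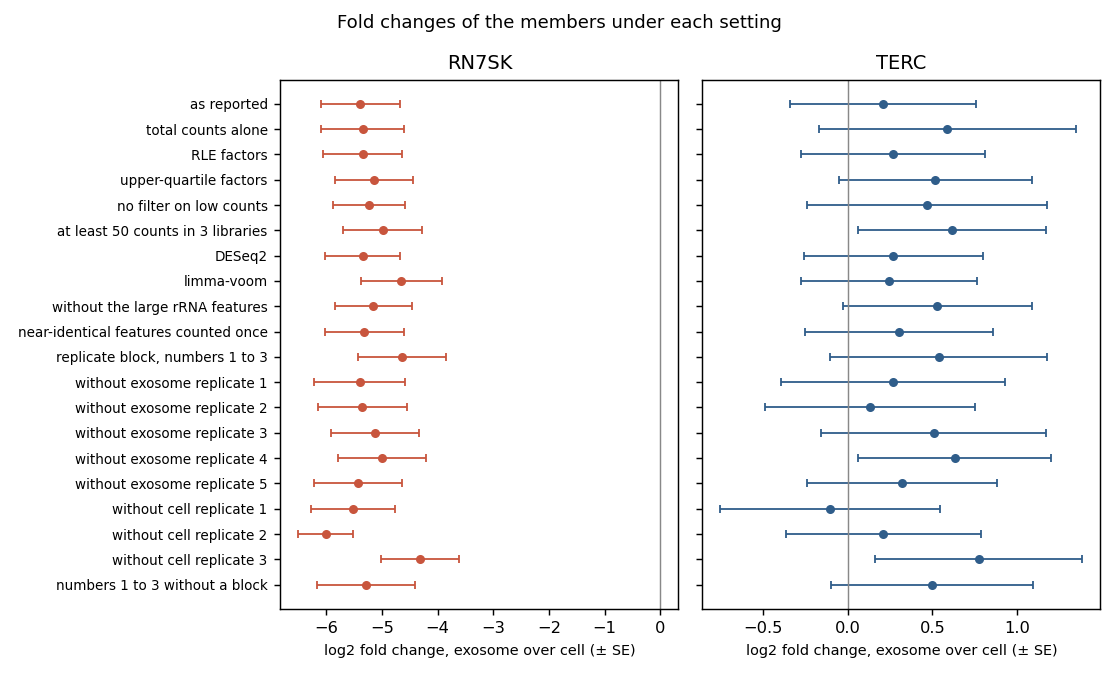
Log2 fold change, exosome over cell, of RN7SK (left) and TERC (right) as reported and under each other setting, with bars of ± 1 SE. RN7SK stays between -6.01 and -4.31, and TERC between -0.10 and 0.77 around 0.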

How the data were processed

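Small RNA was sequenced from MEC-1 exosomes (n = 5) and MEC-1 cells (n = 3). The authors deposited raw read counts per feature, in the column form of featureCounts per the file headers. GRCh37 (hg19, hs37d5), STAR, featureCounts, cutadapt 1.1 and DESeq2 1.8.2 are named in the submitters' processing notes. Not given in the sources used here are the strand setting and the treatment of reads with several map positions. Groups and replicate numbers came from the sample titles.

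All 2709 features entered edgeR 4.0.16 in R 4.3.3: default filter (minimum 10 counts), TMM factors, quasi-likelihood test, Benjamini-Hochberg adjustment over 1178 features, called under 0.05. The SE is the log2 fold change divided by the square root of F. The script was tested on simulated data. Ratios used counts plus 0.5 and scipy 1.17.1's exact permutation test, whose two-sided p is double the smaller tail. Alternatives used other scaling, filters, DESeq2 1.42.0, limma 3.58.1, fewer features or libraries, and replicate numbers as a block. Named features are the members, the 5 most correlated with each (log2 of CPM plus 0.5), and the most abundant of each list, all of lists of up to 6. Members and lists were chosen with earlier results of these data known.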

Additional observations from a re-analysis of the deposited data

Results flagged for a closer look

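The RN7SK to 7SL ratio of exosome 1 stood apart from the other exosome libraries. Its log2 value was -2.43, below the -2.03 to -1.94 of exosomes 2 to 5, a gap wider than Dixon's 95% limit for 5 values. The cell libraries lay at 3.58 to 7.08. It was 1 of 10 quantities examined in this way, and chance gives such a gap in about 1 of 20 groups.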

How the results depend on the processing

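The RN7SK call held under all 19 other settings (scaling, filters, tools, features, a block, fewer libraries), with log2 values from -6.01 to -4.31, and TERC was called under none of them. Leaving out 1 library at a time gave -6.01 to -4.31 for RN7SK, -0.10 to 0.77 for TERC and 413 to 491 called features, against 507. Over all features the median log2 fold change, -0.09, moved to 0.19 with total counts alone, 0.25 with upper-quartile factors, 0.29 without the large rRNA features, 0.36 without the low-count filter and 0.12 with the stricter filter. Under these settings TERC was at 0.59, 0.52, 0.53, 0.47 and 0.61. The 2 did not always shift alike: the median was -0.16 without exosome 5, where TERC was at 0.32, and -0.13 with the block below, where TERC was at 0.54.

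Deviations of same-numbered exosome and cell libraries correlated at 0.03, -0.05 and 0.17, and so not all passed the 0.1 set for treating the numbers as pairs. Same-numbered libraries did not stand out, with 0.25 for cell 1 and exosome 4 and 0.14 for cell 3 and exosome 2. The design text states that 3 exosome samples have matching cell samples without naming them, so the true pairs are not known here and no fit by true pairs was made. With the replicate number as a block, over the 6 libraries numbered 1 to 3, RN7SK was at -4.64 (edgeR adjusted p = 0.00107), TERC at 0.54 and 333 features were called, against 398 for these libraries without a block. That fit, the raw CPM spread and the MEG3 values without single libraries were chosen after seeing the data. In the same block the mean log2 ratio differences were -5.07 for RN7SK to TERC, -7.87 for RN7SK to 7SL, -2.80 for TERC to 7SL, 1.80 for TERC to H/ACA snoRNAs and 1.74 for TERC to Cajal body RNAs. Sign flips of 3 pairs cannot go below an exact permutation p of 0.25, so none could pass.

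Leaving out 1 library, the ratio differences ran from -6.19 to -4.19 for RN7SK to TERC, from -8.88 to -7.13 for RN7SK to 7SL, from -3.21 to -2.70 for TERC to 7SL, from 1.75 to 1.99 for TERC to H/ACA snoRNAs and from 1.42 to 1.85 for TERC to Cajal body RNAs. Fewer libraries leave too few splits for the exact test to pass. For RN7SK to C/D snoRNAs they ran from -2.00 to 0.52, reversed without cell 1 (0.52) and cell 3 (0.32); the cause was not tested. TERC rests on 32 to 174 reads per library, which limits what its comparison can show.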
